A study of Mus musculus with 7 samples.

Results

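The genes described here are 37 genes of the cell cycle and of DNA replication. They were listed by name, with earlier results of these data known. They comprise 16 genes of the G1 phase and the G1/S transition (D and E cyclins, E2F factors, the MCM helicase, the sliding clamp and enzymes of nucleotide supply) and 21 genes of G2 and mitosis (cyclins A and B, mitotic kinases, kinesins, kinetochore and spindle proteins). A single-gene probe set was found for 35 of them, 15 of G1/S and 20 of G2/M, among 22180 genes tested. Ccne2 shared its probe set with another symbol and Ccnb1 had no entry, so neither is analysed here.

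Expression was measured on 7 whole-transcript arrays of collagenase-isolated pancreatic islets from mice aged 2 months. Islets of Gata6 flox/flox;Pdx1-Cre mice were on 4 arrays, called here the arrays labelled Gata6 KO, and islets of Gata6 flox/flox mice without Cre on the 3 control arrays. All mice thus carried the floxed alleles, and an effect of the Cre transgene, which is active throughout the pancreatic epithelium, cannot be told apart from one of Gata6. Each array held the islets of 3 pooled mice, so the replicates are pools, and it is their spread that the p-values reflect. Values are log2 signals, on which a difference of 1 is a doubling of signal. Gata6 itself had signals of 5.41, 5.35, 5.34 and 5.01 on the arrays labelled Gata6 KO, against 4.6, 4.80 and 4.83 on the control arrays. It was thus not lower on the labelled arrays, though the difference of 0.54 (SE 0.20) did not pass (limma adjusted p = 0.0622). Relative to the median difference of all genes it was 0.37. After each array was centred on its median it was 0.31 (adjusted p = 0.344). The sources used here do not say which part of the gene was deleted or where the probes lie. All directions below are therefore those of the labels.

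The median difference of all genes between the groups was 0.17, and differences are also given relative to it. Markers of the islet were plainly present: all 10 beta-cell markers lay above the olfactory receptor range described below, with list means of 5.37 to 6.995 on the arrays labelled Gata6 KO and 8.51 to 9.07 on the control arrays. Acinar markers averaged 10.57 to 10.69 on the arrays labelled Gata6 KO and 9.63 to 9.77 on the control arrays, so the islets carried exocrine RNA in both groups. In a bulk sample, fewer cells of a type and less RNA per cell cannot be told apart.

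A cell that divides first accumulates D-type cyclins, which with CDK4 and CDK6 inactivate the retinoblastoma protein and free the E2F factors. These switch on the genes of DNA replication, among them the MCM proteins, which load onto origins as a ring and unwind DNA, and PCNA, which holds the polymerases on it. Later, B-MYB and FOXM1 with the MuvB complex switch on the genes of mitosis. In the adult mouse islet few cells divide, and cyclin D2 is known as the main D-type cyclin of mouse beta cells.

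On the arrays labelled Gata6 KO, 10 of 20 genes of mitosis were higher, together with the replication genes Mcm7, Pcna and Rrm2 and the repressor E2f8, while the D-type cyclin genes Ccnd1 and Ccnd2 were lower. Of the 35 measured members 14 rose, against a background of 17.4% of all genes, and 2 fell, against a background of 7.36% (limma, adjusted p under 0.05 after Benjamini-Hochberg correction across the whole table). In G1/S 4 of 15 genes rose and 2 fell. In G2/M 10 of 20 rose, and since all 20 differences were above 0, 0 fell in limma's test and 0 at an unadjusted p under 0.05. Differences above 0 were found for 14356 of all 22180 genes, and after centring on the median those of Aurkb, Kif20a and Cenpf were below 0. The median difference was 0.48 over the G1/S genes and 0.62 over the G2/M genes, against 0.17 over all genes. Whether the G1/S and G2/M genes differ from each other was not tested.

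These counts moved with the scaling. After each array was centred on its median, 10 members were higher, against 8.43% of all genes, and 3 were lower, against 12.5%. After centring on the olfactory receptor genes, a family of the nose, 12 were higher, against 13.4% of all genes, and 2 were lower, against 8.3%. The groups did not overlap for 18 members, 16 of them with every array labelled Gata6 KO above every control array, against 24.4% of all genes, and 2 with every one below, against 9.96%. A total of 12 of the 16 called members passed in the same direction under all 3 other scalings. They were Ccnd1, Ccnd2, E2f8, Mcm7, Rrm2, Ccna2, Aurka, Plk1, Kif23, Cenpe, Nusap1 and Tpx2. Without control array 2 or control array 3, 9 members rose, while 2395 and 2618 of all 22180 genes did. Without KO-labelled arrays 3 and 4, 20 members rose, while 3474 of all genes did. The mean of all members was 2.78 and 2.77 on these arrays, against 3.29 and 3.09 on KO-labelled arrays 1 and 2. Leaving them out thus widens the mean difference of the members by construction, and this count is no check of the calls.

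**Figure D1:**
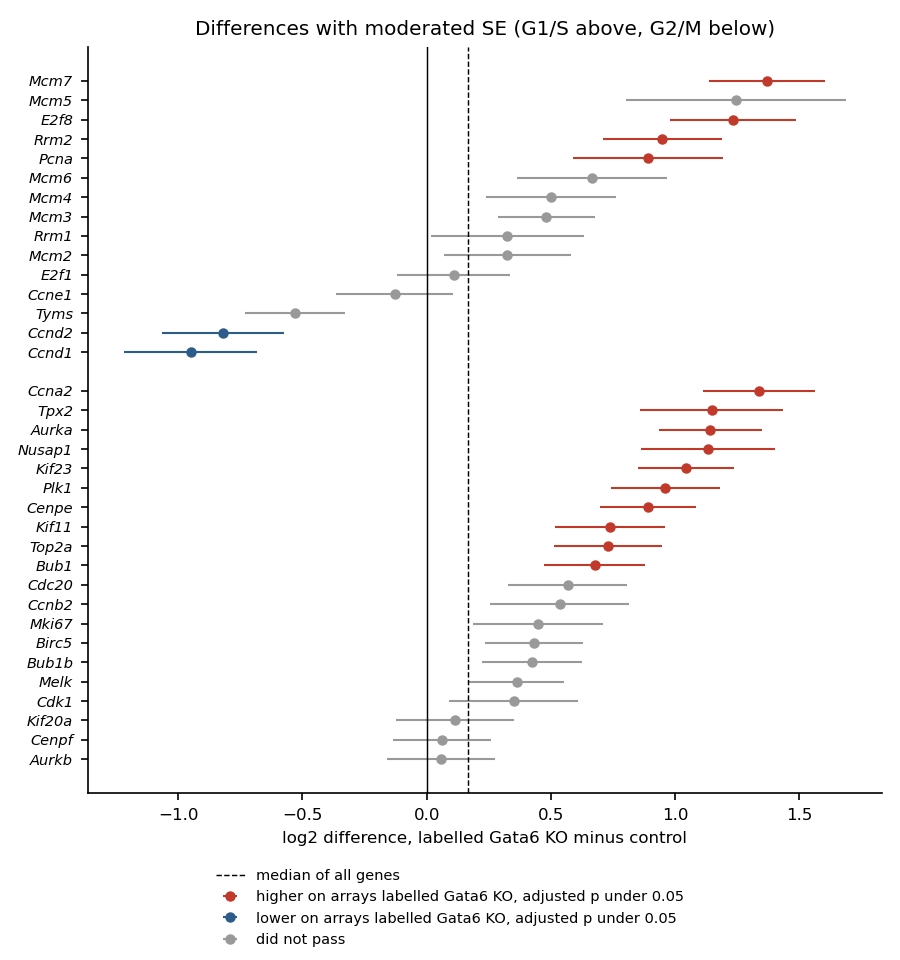
Log2 differences (x axis, arrays labelled Gata6 KO minus control arrays) of the 15 G1/S genes and the 20 G2/M genes, with limma's moderated SE as bars (4 and 3 arrays). The dashed line marks the median of all genes, 0.17. The differences run from -0.95 for Ccnd1 to 1.37 for Mcm7, and all G2/M genes lie right of 0.

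Because E2F and MuvB act through short promoter elements, the promoters of the members that rose with the smallest p in each class and had a RefSeq entry are shown, from 250 bases before to 30 bases after the first listed start, in assembly GRCm38.p6 and read 5′ to 3′ along the gene's strand. Capitals mark, on either strand, the cell cycle homology region (CHR), which was searched as TTTGAA and also as TTCGAA, the box of letters CCAAT, and the E2F core. The core was searched as TTTCGCG, with the second form being TTTGGCG, the next form being TTTCCCG and the last form being TTTGCCG. Overlapping matches merge into 1 run, as do the E2F core and the CCAAT box in the Mcm7 promoter. The G1/S genes come first.
Mcm7, chr5:138171854-138172133, minus strand: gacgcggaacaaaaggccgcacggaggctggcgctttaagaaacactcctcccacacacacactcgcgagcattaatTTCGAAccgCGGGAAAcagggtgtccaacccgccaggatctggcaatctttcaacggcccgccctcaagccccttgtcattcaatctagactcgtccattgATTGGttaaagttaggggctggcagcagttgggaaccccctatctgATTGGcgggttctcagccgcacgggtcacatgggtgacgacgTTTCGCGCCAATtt
E2f8, chr7:48881567-48881846, minus strand: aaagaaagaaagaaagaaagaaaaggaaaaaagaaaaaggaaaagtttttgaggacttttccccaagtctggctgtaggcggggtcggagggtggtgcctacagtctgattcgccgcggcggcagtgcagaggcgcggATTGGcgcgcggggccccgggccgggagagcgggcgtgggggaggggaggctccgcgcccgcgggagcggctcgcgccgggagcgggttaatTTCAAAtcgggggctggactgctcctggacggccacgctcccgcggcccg
Rrm2, chr12:24708004-24708283, plus strand: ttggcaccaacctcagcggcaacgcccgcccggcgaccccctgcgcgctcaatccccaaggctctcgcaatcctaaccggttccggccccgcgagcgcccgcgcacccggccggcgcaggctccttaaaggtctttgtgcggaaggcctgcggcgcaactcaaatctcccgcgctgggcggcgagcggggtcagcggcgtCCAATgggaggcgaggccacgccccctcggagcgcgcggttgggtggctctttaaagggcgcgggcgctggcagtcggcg
The G2/M genes follow.
Aurka, chr2:172370541-172370820, minus strand: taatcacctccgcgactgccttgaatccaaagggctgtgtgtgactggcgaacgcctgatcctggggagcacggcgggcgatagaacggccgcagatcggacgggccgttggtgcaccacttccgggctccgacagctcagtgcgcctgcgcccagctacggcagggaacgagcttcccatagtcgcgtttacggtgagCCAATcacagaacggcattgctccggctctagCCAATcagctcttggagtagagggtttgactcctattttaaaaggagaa
Kif23, chr9:61946770-61947049, minus strand: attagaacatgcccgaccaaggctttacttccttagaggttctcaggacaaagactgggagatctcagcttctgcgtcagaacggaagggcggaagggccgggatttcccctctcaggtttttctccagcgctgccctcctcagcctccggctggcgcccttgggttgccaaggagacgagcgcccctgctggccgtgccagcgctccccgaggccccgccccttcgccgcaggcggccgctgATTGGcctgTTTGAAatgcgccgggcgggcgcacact
Cenpe, chr3:135212313-135212592, plus strand: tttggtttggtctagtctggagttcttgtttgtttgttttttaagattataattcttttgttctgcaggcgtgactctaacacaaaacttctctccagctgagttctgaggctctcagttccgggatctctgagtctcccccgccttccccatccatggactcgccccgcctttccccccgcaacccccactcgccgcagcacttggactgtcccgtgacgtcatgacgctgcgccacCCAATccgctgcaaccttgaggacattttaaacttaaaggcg

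All 6 windows held a CCAAT box, which lay at base -50 for Rrm2 and at bases -51 and -19 for Aurka, counted from 0 at the first transcribed base. The Kif23 window held a CCAAT box at base -7 and a CHR (TTTGAA) at base 2, side by side at the start. For Mcm7, an E2F core (TTTCGCG) at base 16 touched a CCAAT box at base 23. A CHR of Aurka lay beyond the printed bases. Over longer windows, which go on to 50 bases after the start, RefSeq promoters were found for 12 G1/S and 17 G2/M genes of the list. A CHR lay in 12 of the 17 G2/M promoters (70.6%) and in 3 of the 12 G1/S promoters (25%), against 19.4% of all 27025 promoters in the table. A CCAAT box lay in 14 of the 17 (82.4%) and in 9 of the 12 (75%), against 37.9% of all. An E2F core lay in 4 of the 17 (23.5%) and in 4 of the 12 (33.3%), against 6.85% of all. Of the measured G2/M genes, 6 of 12 with a CHR rose and 2 of 4 without one, 7 of 13 with a CCAAT box and 1 of 3 without, and 1 of 4 with an E2F core and 7 of 12 without. Of the G1/S genes, 2 of 3 with a CHR rose and 2 of 9 without one, 4 of 9 with a CCAAT box and 0 of 3 without, and 1 of 4 with an E2F core and 3 of 8 without. These numbers were not tested. These matches describe the sequence and were not tested as sites.

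The members that fell were Ccnd1 and Ccnd2, genes of D-type cyclins, which start the cycle. Ccnd3, a further D-type cyclin gene that is no member, was not among the 7 other cell cycle genes that fell. Ccnd2 had log2 signals of 8.32, 7.95, 7.50 and 7.64 on the arrays labelled Gata6 KO, against 9.06, 8.75 and 8.20 on the control arrays. KO-labelled array 1 lay above control array 3, so the groups overlapped by this pair. Ccnd2 differed by -0.82 (SE 0.24, limma adjusted p = 0.0257), or -0.99 relative to the median of all genes, and the exact two-sided permutation test gave p = 0.0857, where 0.0286 is the smallest possible. Ccnd1, a D-type cyclin expressed in many tissues, had 4.28, 4.05, 3.46 and 4.00 on the arrays labelled Gata6 KO, against 5.42, 4.91 and 4.37 on the control arrays. Its groups did not overlap, though KO-labelled array 1 came close to control array 3. Ccnd1 differed by -0.95 (SE 0.27, limma adjusted p = 0.0198; exact permutation p = 0.0286), or -1.12 relative to all genes.

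For both cyclins array 3 was the lowest of its group. These were also the arrays with low signal of Xist, the transcript of the inactive X chromosome (2.15 on KO-labelled array 3 and 1.34 on control array 3, against 5.02 to 5.601 on the other arrays). With the Xist class as a block, the difference was -0.87 for Ccnd2 (limma adjusted p = 0.00757) and -1.01 for Ccnd1 (adjusted p = 0.00373). On the 5 arrays with high Xist alone it was -0.94 (adjusted p = 0.0243) and -1.06 (adjusted p = 0.0184). Both calls were lost when single arrays were left out. Without control array 1 the differences were -0.63 for Ccnd2 (adjusted p = 0.14) and -0.69 for Ccnd1 (adjusted p = 0.122), without control array 2 they were -0.78 (adjusted p = 0.0909) and -0.94 (adjusted p = 0.0681), and without KO-labelled array 3 the Ccnd2 difference was -0.70 (adjusted p = 0.0593). All 10 measured beta-cell markers fell on the arrays labelled Gata6 KO. Their mean, too, was the lowest of its group on array 3. It was 5.37 on KO-labelled array 3 and 6.43, 6.89 and 6.995 on arrays 1, 2 and 4. On control array 3 it was 8.51, against 9.07 and 8.625 on control arrays 1 and 2. The part of the beta-cell markers in the values of Ccnd1 and Ccnd2 was not tested.

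The partner genes of G1 showed no common direction. Ccne1, the E-type cyclin that drives entry into S phase, differed by -0.13 (SE 0.23) and E2f1, an activating E2F factor, by 0.11 (SE 0.23), with adjusted p = 0.728 and adjusted p = 0.768. E2f8, an atypical E2F that represses E2F targets late in S phase, behaved otherwise. It had signals of 3.80, 2.97, 3.44 and 2.92 on the arrays labelled Gata6 KO, against 2.05, 1.79 and 2.31 on the control arrays. Its groups stood clearly apart, by a difference of 1.23 (SE 0.25, limma adjusted p = 0.00319), or 1.07 relative to all genes.

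Of the MCM helicase, all 6 subunits were measured and all 6 differences were above 0, but the subunits were unequal. Mcm7 had 4.12, 3.78, 3.44 and 3.77 on the arrays labelled Gata6 KO, against 2.69, 2.46 and 2.07 on the control arrays. This was the largest difference of all members, 1.37 (SE 0.23, limma adjusted p = 8.72e-04; exact permutation p = 0.0286), or 1.21 relative to all genes. Mcm5 had 4.59, 3.89, 2.19 and 2.90, against 2.60, 2.20 and 1.64 on the control arrays. KO-labelled array 3 lay among the controls, and Mcm5 did not pass at a difference of 1.24 (SE 0.44, adjusted p = 0.0543). Mcm3 had a narrow range, 2.56 to 2.82 on the arrays labelled Gata6 KO and 2.23 to 2.25 on the control arrays, which did not overlap, with a difference of 0.48 (adjusted p = 0.0872). Mcm2, Mcm4 and Mcm6 differed by 0.33 (SE 0.26), 0.50 (SE 0.26) and 0.67 (SE 0.30) and did not pass.

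Within the arrays labelled Gata6 KO, some replication genes were spread widely, while Mcm3 and Mcm7 were not. Mcm6 had 3.91 and 3.38 on KO-labelled arrays 1 and 2, and 2.83 and 2.42 on arrays 3 and 4, against 2.42, 2.64 and 2.34 on the control arrays. Rrm1, the large subunit of ribonucleotide reductase, had 3.95 and 3.53 on arrays 1 and 2, and 2.73 and 2.58 on arrays 3 and 4, against 2.96, 3.05 and 2.60 on the control arrays. In both genes array 4 was at or just below the levels of the controls. Without KO-labelled array 4, limma's test called Mcm4 (adjusted p = 0.0229), Mcm5 (adjusted p = 0.0441), Mcm6 (adjusted p = 0.0261) and, among the mitotic genes, Ccnb2 (adjusted p = 0.0232). Mcm5 also passed without array 3 (adjusted p = 0.00923).

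Pcna, the sliding clamp, had 5.27, 4.64, 3.97 and 3.95 on the arrays labelled Gata6 KO, against 3.85, 3.59 and 3.27 on the control arrays. The groups did not overlap, but KO-labelled arrays 3 and 4 lay close above control array 1. Its difference was 0.89 (SE 0.30, limma adjusted p = 0.045), and the exact two-sided permutation test gave p = 0.1143. Pcna was no longer called after any of the 3 other scalings (adjusted p between 0.0519 and 0.167), nor without any 1 of control arrays 1, 2 and 3 (adjusted p = 0.0682, 0.114 and 0.163) or of KO-labelled arrays 1 and 2 (adjusted p = 0.0984 and 0.0965). 

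Enzymes of nucleotide supply went separate ways. Rrm2, the small subunit of ribonucleotide reductase that limits its activity in S phase, had 3.31, 3.67, 2.78 and 3.31 on the arrays labelled Gata6 KO, against 2.54, 2.11 and 2.29 on the control arrays. It rose by 0.95 (SE 0.24, limma adjusted p = 0.0109), a call that was lost without control array 2 (adjusted p = 0.0605). A second Rrm2 probe set lay at 0.69 on the arrays labelled Gata6 KO and at 0.52 on the control arrays on average, within the olfactory receptor range given below. Tyms, thymidylate synthase, had 3.86, 4.06, 3.64 and 3.76 on the arrays labelled Gata6 KO, against 4.25, 4.35 and 4.48 on the control arrays. Every array labelled Gata6 KO was below every control array, but the difference of -0.53 (SE 0.20) did not pass (adjusted p = 0.0691). It passed after centring on the median, at -0.76 (adjusted p = 0.0213), and after repeated quantile normalization, at -0.61 (adjusted p = 0.0402).

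**Figure D2:**
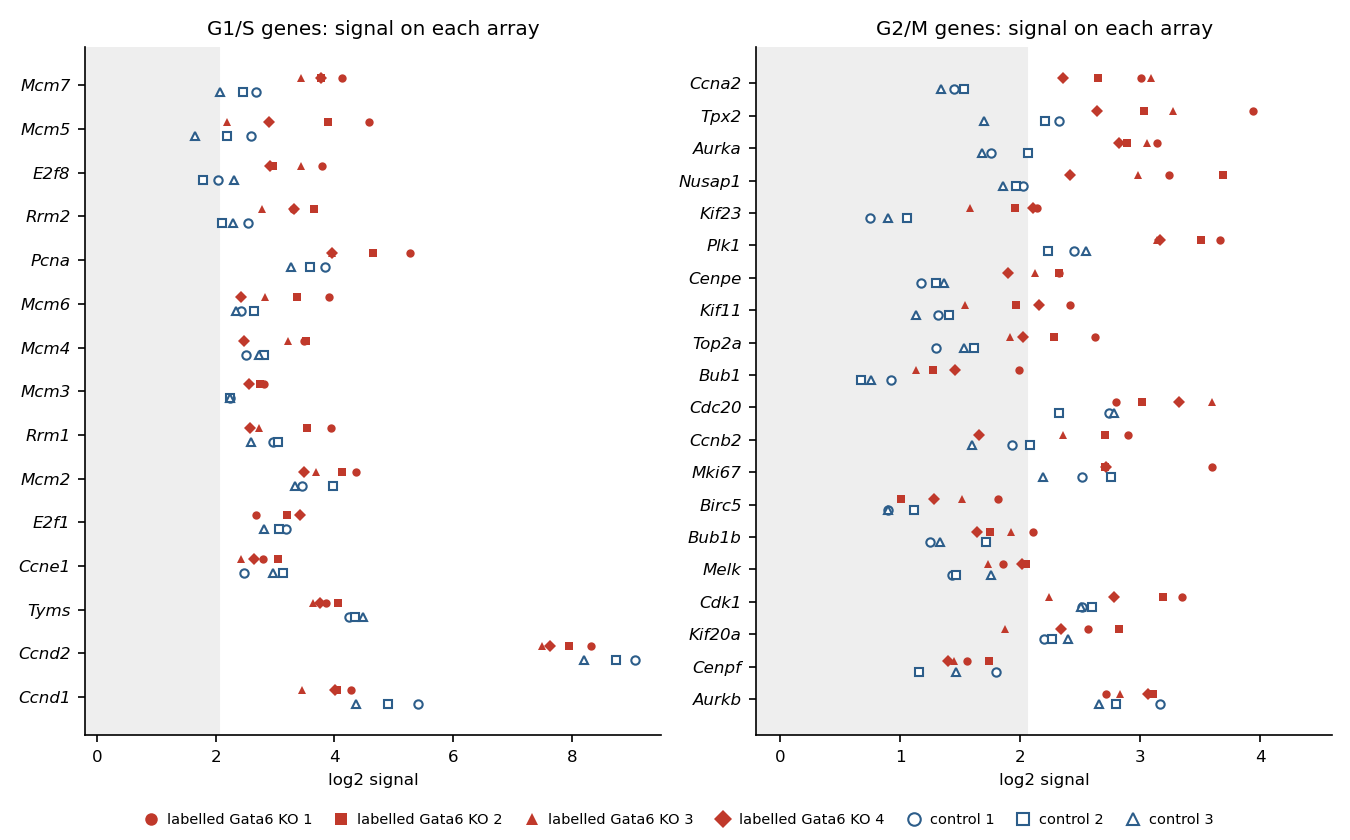
Log2 signal (x axis) of each G1/S gene (left) and G2/M gene (right) on the 4 arrays labelled Gata6 KO (filled) and the 3 control arrays (open). The grey area ends at 2.06, the 95th percentile of olfactory receptor genes. Ccnd1 and Tyms lie left of all their controls, Ccnd2 overlaps by 1 pair of arrays, and Mcm5, Mcm6, Pcna and Rrm1 spread widely over the arrays labelled Gata6 KO.

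Ccna2 encodes cyclin A2, the cyclin of S phase and G2. It had 3.01, 2.65, 3.09 and 2.35 on the arrays labelled Gata6 KO, against 1.45, 1.53 and 1.34 on the control arrays. The groups did not overlap, the control arrays lay within the olfactory receptor range given below, so that the size of the change is uncertain, and the difference was 1.34 (SE 0.23, limma adjusted p = 8.08e-04; exact permutation p = 0.0286), or 1.17 relative to all genes. Ccnb2, cyclin B2, and Cdk1, the kinase that both cyclins activate, differed by 0.54 (SE 0.28) and 0.35 (SE 0.26) and did not pass (adjusted p = 0.179 and 0.352). Cdk1 had 3.35, 3.19, 2.24 and 2.78 on the arrays labelled Gata6 KO, against 2.52, 2.60 and 2.50 on the control arrays. KO-labelled array 3 was the lowest of all 7 arrays for Cdk1.

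The mitotic kinases were split. Aurka, the Aurora kinase of centrosomes and spindle poles, had 3.14, 2.89, 3.06 and 2.82 on the arrays labelled Gata6 KO, against 1.76, 2.07 and 1.68 on the control arrays, a difference of 1.14 (SE 0.21, limma adjusted p = 0.00138). Tpx2, which activates Aurora A on the spindle, had 3.94, 3.04, 3.27 and 2.64 on the arrays labelled Gata6 KO, against 2.32, 2.21 and 1.70 on the control arrays. It rose by 1.15 (SE 0.29, adjusted p = 0.0105), a call lost without control array 3 (adjusted p = 0.0596) and on the high-Xist arrays alone (adjusted p = 0.1). The groups of both genes were separate. Aurkb, the Aurora kinase of the chromosomal passenger complex, had 2.72, 3.11, 2.83 and 3.07 on the arrays labelled Gata6 KO, against 3.17, 2.80 and 2.66 on the control arrays. These groups overlapped, with a difference of 0.06 (SE 0.22, adjusted p = 0.875). Birc5, survivin, a subunit of the same complex, differed by 0.43 (SE 0.20, adjusted p = 0.127).

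Plk1, the Polo kinase of mitotic entry, had 3.67, 3.51, 3.14 and 3.16 on the arrays labelled Gata6 KO, against 2.45, 2.23 and 2.54 on the control arrays. All 4 arrays were above all controls, by 0.96 on average (SE 0.22, limma adjusted p = 0.0058). Bub1, a spindle checkpoint kinase, rose by 0.68 (SE 0.20, adjusted p = 0.0259), and its checkpoint relative Bub1b differed by 0.42 (SE 0.20, adjusted p = 0.141). Bub1 signals were low, 1.14 to 1.99 on the arrays labelled Gata6 KO and 0.68 to 0.92 on the control arrays. Cdc20, the activator of the anaphase-promoting complex, had 2.80 to 3.60 on the arrays labelled Gata6 KO and 2.33 to 2.78 on the control arrays. Its groups did not overlap, but its difference of 0.57 (SE 0.24) did not pass (adjusted p = 0.0989), nor did that of the kinase gene Melk, 0.36 (SE 0.19).

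Of the spindle and kinetochore genes, 5 of 7 rose, against 17.4% of all genes, to different degrees. Nusap1, a microtubule-bundling protein, had 3.24, 3.69, 2.98 and 2.41 on the arrays labelled Gata6 KO, against 2.03, 1.97 and 1.86 on the control arrays, a difference of 1.13 (SE 0.27, limma adjusted p = 0.00787), a call lost on the high-Xist arrays alone (adjusted p = 0.0551). Kif23, the kinesin of the central spindle and cytokinesis, had 2.14, 1.96, 1.58 and 2.10 on the arrays labelled Gata6 KO, against 0.75, 1.06 and 0.90 on the control arrays, a difference of 1.04 (SE 0.19, adjusted p = 0.00167). Cenpe, the kinetochore kinesin, had 2.32, 2.32, 2.13 and 1.90, against 1.17, 1.30 and 1.36 on the control arrays, a difference of 0.89 (SE 0.19, adjusted p = 0.00442). In all 3 genes the groups were separate. Kif11, the spindle bipolarity kinesin, rose by 0.74 (SE 0.22, adjusted p = 0.0258), and Tpx2 is described above. The cytokinesis kinesin Kif20a and the kinetochore protein Cenpf differed by 0.11 (SE 0.24) and 0.06 (SE 0.20) and did not pass.

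Of the genes most used to mark proliferating cells, Top2a passed the test and Mki67 did not. Mki67, which encodes the Ki-67 antigen, had 3.60, 2.71, 2.71 and 2.72 on the arrays labelled Gata6 KO, against 2.52, 2.76 and 2.19 on the control arrays. Array 1 alone stood above the controls, and the difference of 0.45 (SE 0.26) did not pass (adjusted p = 0.231). Top2a, topoisomerase II alpha, which untangles sister chromatids, had 2.63, 2.29, 1.92 and 2.02 on the arrays labelled Gata6 KO, against 1.30, 1.62 and 1.53 on the control arrays, a difference of 0.73 (SE 0.22, limma adjusted p = 0.0257).

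The calls of Top2a, Bub1 and Kif11 were the weakest of the mitotic genes. After centring on the median the adjusted p was 0.132, 0.152 and 0.123. Each call was also lost without any 1 of the 3 control arrays (Top2a adjusted p = 0.119, 0.0541 and 0.0647; Bub1 0.055, 0.1 and 0.0775; Kif11 0.0778, 0.0571 and 0.1, for control arrays 1, 2 and 3). Without KO-labelled array 1 that of Top2a (adjusted p = 0.0554) and of Kif11 (adjusted p = 0.0569) was lost, and without array 2 that of Top2a (adjusted p = 0.0539). The count of G2/M genes that rose was 6 without control array 3, where 2618 of all 22180 genes rose.

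Most of these signals were near the lower end of the scale. The 1105 olfactory receptor genes had a median log2 signal of 0.87 and a 95th percentile of 2.06 over the 7 arrays. All 15 G1/S genes and 11 of the 20 G2/M genes averaged above 2.06 over the 7 arrays. Some passed through the arrays labelled Gata6 KO: the means of E2f8, Ccna2, Aurka and Nusap1 were 3.28, 2.77, 2.98 and 3.08 on those arrays, and 2.05, 1.44, 1.84 and 1.95 on the control arrays, inside the olfactory receptor range. The 9 below it were Top2a, Bub1, Bub1b, Birc5, Kif11, Kif23, Cenpe, Cenpf and Melk, and 5 of them were called. The olfactory receptor genes themselves averaged 1.01 to 1.11 on the arrays labelled Gata6 KO and 0.89 to 0.96 on the control arrays, a median difference of 0.10, and 69 of the 1105 were called higher and 16 lower.

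**Figure D3:**
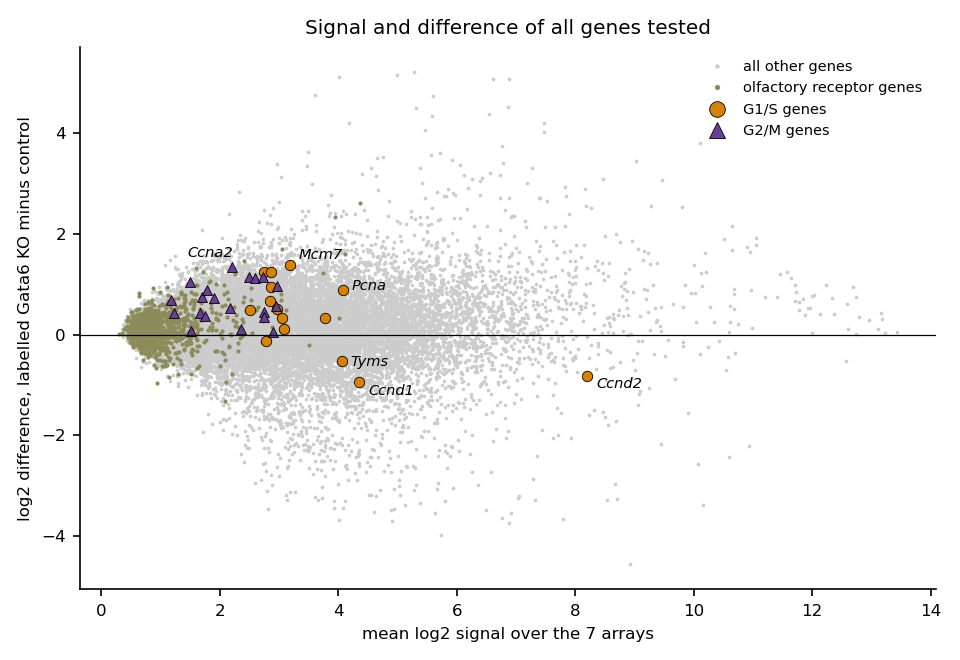
Mean log2 signal over the 7 arrays (x axis) against the log2 difference, arrays labelled Gata6 KO minus control arrays (y axis), for all 22180 genes, with olfactory receptor genes and the members marked. The G2/M genes lie between 1.17 and 2.96 on the x axis, partly among the olfactory receptors, while Ccnd1 and Ccnd2 lie at 4.36 and 8.20.

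Genes that rose and genes that fell differed in signal. Members that rose had a median signal of 2.54, while the pair that fell lay at 4.36 (Ccnd1) and 8.20 (Ccnd2). Among the other cell cycle genes the median signal was 2.45 for the 56 that rose and 4.51 for the 7 that fell, and among all genes 2.98 for the 3853 that rose and 3.71 for the 1633 that fell. Signals of different probe sets depend on their probes, so these are positions on the array's scale and not transcript levels.

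The rest of the cell cycle machinery was covered by 11 further lists with 166 measured genes, of which 56 rose (17.4% of all genes did) and 7 fell (7.36% of all genes). Their median difference was 0.36, against 0.17 over all genes. After centring on the median 22 were higher and 11 lower, against 8.43% and 12.5% of all genes. Of the 166 genes 112 averaged above 2.06, the upper end of the olfactory receptor range. Of 18 genes of origin licensing and firing 9 rose, with a median of 0.54. After centring on the median 4 of these 18 were higher, against 8.43% of all genes. Cdt1, which loads the MCM ring onto origins, had 4.42, 4.23, 3.79 and 3.67 on the arrays labelled Gata6 KO, against 2.55, 2.06 and 2.85 on the control arrays, a difference of 1.54 (SE 0.26, limma adjusted p = 7.18e-04). The origin recognition genes Orc4 and Orc6 rose by 1.33 (SE 0.20) and 0.93 (SE 0.20). Of 21 genes of the replication fork 10 rose, with a median of 0.56, among them the polymerase genes Pold1 and Pole4, by 1.04 (SE 0.20) and 1.13 (SE 0.23), and the DNA ligase gene Lig1, by 0.96 (SE 0.19). After centring on the median 4 of these 21 were higher, against 8.43% of all genes. Orc6 and Lig1 averaged 1.39 and 1.51 on the control arrays, within the olfactory receptor range. Of 7 further genes of nucleotide supply 1 rose, the CTP synthase gene Ctps, by 0.95 (SE 0.25; adjusted p = 0.0713 after centring on the median), while Rrm2b and Tk1 differed by -0.54 (SE 0.20) and 0.41 (SE 0.22) and did not pass.

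Regulators of the G1/S switch changed in both directions. Of 16 G1 kinases and Rb-E2F genes 6 rose and 1 fell, against 17.4% and 7.36% of all genes. After centring on the median 4 were higher and 3 lower, against 8.43% and 12.5% of all genes. E2f2, an activating E2F, rose by 1.39 (SE 0.21, limma adjusted p = 3.28e-04) and the E2F partner Tfdp1 by 1.05 (SE 0.22, adjusted p = 0.00361). E2f4, the E2F that holds cell cycle genes silent in resting cells, fell: it had 3.84, 4.22, 2.77 and 3.98 on the arrays labelled Gata6 KO, against 5.04, 5.36 and 5.34 on the control arrays. Every array labelled Gata6 KO was below every control array, and the difference was -1.55 (SE 0.30, adjusted p = 0.00212). Of 8 CDK inhibitor genes 3 rose, Cdkn2a (which encodes p16 and p19ARF) by 0.88 (SE 0.22), Cdkn3 by 0.85 (SE 0.23) and Cdkn1c (p57) by 0.74 (SE 0.21). Of 7 MuvB genes and partners 3 rose, namely Foxm1 by 1.33 (SE 0.21), Lin9 by 0.78 (SE 0.23) and Rbbp4 by 0.77 (SE 0.20). After centring on the median 1 CDK inhibitor gene and 1 MuvB gene were higher, against 8.43% of all genes. The calls of Cdkn3, Cdkn1c, Lin9 and Rbbp4 were lost (adjusted p = 0.0816, 0.0985, 0.101 and 0.0985). Control means of Cdkn3, Foxm1 and Lin9 (0.985, 1.57 and 1.83) lay within the olfactory receptor range, so that the sizes of their changes are uncertain.

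The further lists of mitosis held genes that rose and a few that fell. Of 26 kinetochore and spindle checkpoint genes 9 rose and 1 fell, against 17.4% and 7.36% of all genes. After centring on the median 3 were higher and 1 lower, against 8.43% and 12.5% of all genes. Mad2l1, the checkpoint protein MAD2, had 3.14, 2.81, 2.81 and 2.38 on the arrays labelled Gata6 KO, against 1.34, 1.26 and 1.58 on the control arrays, a difference of 1.39 (SE 0.22, limma adjusted p = 5.61e-04). The kinetochore genes Cenpc1 and Spc24 rose by 1.34 (SE 0.22) and 1.03 (SE 0.20). Of 22 spindle motor and cytokinesis genes 5 rose and 2 fell, with Kif22, Kif18b and Incenp higher by 1.18 (SE 0.23), 0.99 (SE 0.24) and 0.96 (SE 0.24). Of 9 mitotic entry genes 2 rose, the phosphatase gene Cdc25b by 0.87 (SE 0.19) and the inhibitory kinase gene Wee1 by 0.85 (SE 0.27), and Cks2 differed by 0.83 (SE 0.33) and did not pass. The shares of these last 2 lists were near that of all genes. After centring on the median 3 spindle motor and cytokinesis genes and 1 mitotic entry gene were higher, against 8.43% of all genes. The call of Wee1 was lost (adjusted p = 0.144). Of the 26 kinetochore genes 9 averaged above 2.06, the upper end of the olfactory receptor range, and of the 22 spindle motor genes 7. Control means of Mad2l1, Cenpc1, Kif22, Incenp and Cdc25b (1.39, 1.27, 2.04, 1.75 and 1.795) lay within that range, so that the sizes of their changes are uncertain.

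Genes of condensin, of cohesin and of cohesin's regulators changed in both directions. Of 16 condensin and cohesin genes 6 rose and 2 fell, against 17.4% and 7.36% of all genes. After centring on the median 1 was higher and 2 lower, against 8.43% and 12.5% of all genes. After centring on olfactory receptors 3 were higher and 2 lower, against 13.4% and 8.3% of all genes. Cdca5, sororin, which protects cohesion, had 3.25, 3.12, 3.24 and 3.35 on the arrays labelled Gata6 KO, against 1.503, 1.68 and 1.85 on the control arrays, a difference of 1.56 (SE 0.20, limma adjusted p = 1.04e-04). Pttg1, securin, rose by 0.83 (SE 0.22), a call lost after centring on the median (adjusted p = 0.0599). Rad21, the kleisin subunit of the cohesin ring, fell by 1.36 (SE 0.23, adjusted p = 6.93e-04), with 5.61, 5.64, 5.07 and 5.75 on the arrays labelled Gata6 KO, against 7.16, 6.91 and 6.57 on the control arrays. Both genes had groups far apart. Cdca5 and Pttg1 averaged 1.675 and 1.845 on the control arrays, within the olfactory receptor range, so that the sizes of their changes are uncertain. Of 16 genes of the anaphase-promoting complex and mitotic exit 2 rose, Cdc16 by 0.69 (SE 0.19) and Ube2c by 0.71 (SE 0.24), and 1 fell, Cdc26 by 0.85 (SE 0.20), shares no higher than those of all genes. Neither rise was called after centring on the median (adjusted p = 0.137 for Cdc16 and 0.175 for Ube2c), and Ube2c was not called after centring on olfactory receptors either (adjusted p = 0.069). The other genes that fell were Spc25 (-1.50, SE 0.30), Ckap5 (-0.88, SE 0.26), Ncaph2 (-0.75, SE 0.24) and Racgap1 (-0.65, SE 0.20), which are named after their values were seen.

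**Figure D4:**
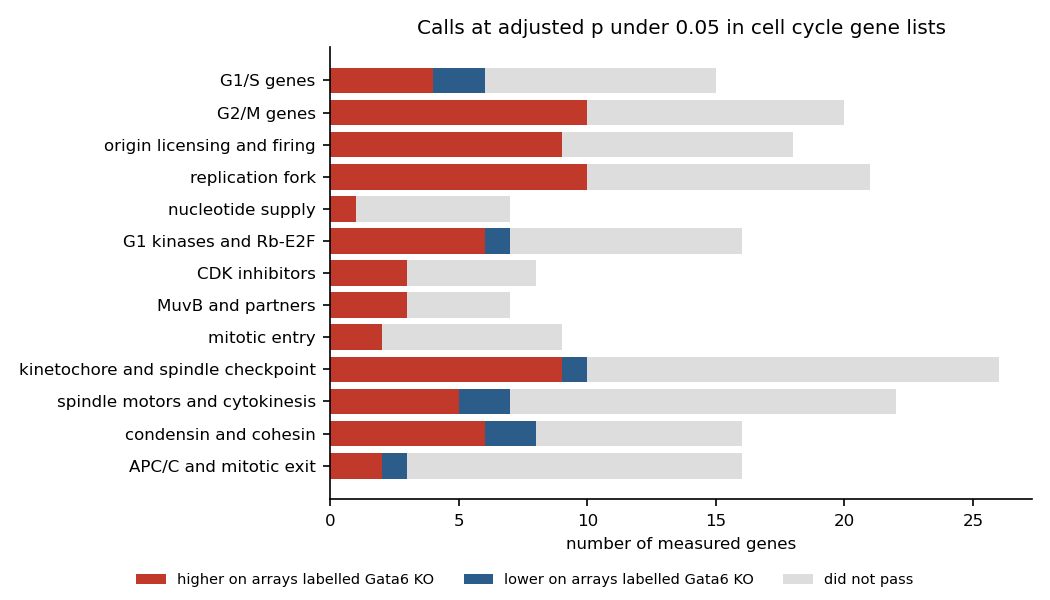
Number of measured genes (x axis) in the G1/S and G2/M genes and in 11 further cell cycle lists that were higher, lower or did not pass on the arrays labelled Gata6 KO (limma, adjusted p under 0.05). G2/M genes, origin licensing and the replication fork hold 10, 9 and 10 that rose, and the fallen genes are spread over 6 lists. After centring on the median, which is not drawn, the counts of these 3 lists were 7, 4 and 4.

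Markers of cell types changed in both directions, and their counts below stand against 17.4% of all genes that rose and 7.36% that fell. The mean of Mcm2 to Mcm7 and Pcna was 4.08 and 3.73 on KO-labelled arrays 1 and 2 and 3.16 and 3.08 on arrays 3 and 4, against 2.82, 2.84 and 2.52 on the control arrays. The mean of the G2/M genes was 2.69, 2.48, 2.30 and 2.26 on the arrays labelled Gata6 KO, against 1.79, 1.82 and 1.72 on the control arrays. Myeloid markers averaged 3.88, 3.14, 2.92 and 2.72 on the arrays labelled Gata6 KO, against 2.75, 2.51 and 2.53 on the control arrays, and 3 of 10 rose, among them Lyz2, which has a near-identical neighbour in Lyz1, by 2.57 (SE 0.63), Itgam by 1.27 (SE 0.22) and Cd14 by 1.24 (SE 0.24), while C1qb differed by -0.24 (SE 0.47). KO-labelled array 1 was the highest and array 4 the lowest of its group in all 3 of these means. Over all 15 G1/S genes the mean was 4.10, 3.91, 3.42 and 3.46 on the arrays labelled Gata6 KO. It was 3.45, 3.41 and 3.18 on the control arrays, so for this whole list KO-labelled array 3 was the lowest of its group. Itgam and Cd14 averaged 1.00 and 1.99 on the control arrays, within the olfactory receptor range.

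Lymphocyte markers (T, B and NK cells) averaged 3.20, 2.58, 2.50 and 2.59 on the arrays labelled Gata6 KO, against 1.72, 1.81 and 1.79 on the control arrays. Of 11 measured 6 rose, including Ltb by 1.64 (SE 0.24) and Cd5 by 1.39 (SE 0.21), Cd79a differed by 1.06 (SE 0.44) and did not pass, and 4 of the 11 averaged within the olfactory receptor range below 2.06. Mesenchymal markers averaged 5.80, 4.95, 5.0 and 3.78 on the arrays labelled Gata6 KO, against 3.44, 3.72 and 4.21 on the control arrays, and 7 of 10 rose, among them Col3a1 by 2.06 (SE 0.44), Col1a2 by 1.62 (SE 0.35) and Vim by 1.09 (SE 0.30; adjusted p = 0.0753 after centring on the median), while Rgs5 differed by -0.998 (SE 0.46). Of 12 acinar markers 7 rose, among them Amy2b (of a family of near-identical genes) and Spink1 by 2.82 (SE 0.24) and 1.90 (SE 0.18), while the brightest, Ctrb1 and Cela1, differed by 0.05 (SE 0.14) and 0.02 (SE 0.14). Array 1 labelled Gata6 KO was again the highest of the lymphocyte and mesenchymal means, but not of the acinar mean.

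The remaining lists were smaller. Of 6 ductal markers 2 rose, Muc1 by 1.23 (SE 0.27) and Epcam by 0.75 (SE 0.24), Epcam not called after centring on the median (adjusted p = 0.179) or on olfactory receptors (adjusted p = 0.0799), and Krt7 fell by 0.82 (SE 0.24). Of 8 endothelial markers 3 fell, Flt1, Kdr and Plvap, by 1.56 (SE 0.26), 1.30 (SE 0.23) and 1.41 (SE 0.33). Of 5 adipocyte markers 2 rose, Fabp4 by 2.40 (SE 0.69) and Adipoq by 0.69 (SE 0.17; adjusted p = 0.0524 after centring on the median), and Plin1 differed by -0.11 (SE 0.24). Of 4 neural and glial markers Ngfr rose by 1.43 (SE 0.34), and Gfap and S100b differed by 0.27 (SE 0.27) and -0.37 (SE 0.20). Adipoq and Ngfr averaged 0.73 and 1.82 on the control arrays, within the olfactory receptor range. Endocrine markers fell: all 10 of the beta cell, among them Glp1r by 2.58 (SE 0.24), Nkx6-1 by 2.42 (SE 0.26) and Iapp by 1.56 (SE 0.33), 3 of 4 of the alpha cell, Ttr by 2.18 (SE 0.23), Irx2 by 1.26 (SE 0.20) and Gcg by 2.42 (SE 0.66), and 3 of 4 of the delta and PP cell, among them Sst by 2.22 (SE 0.35) and Ppy by 4.56 (SE 0.69). The part of any of these cell types in the changes of the cell cycle genes was not tested.

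**Figure D5:**
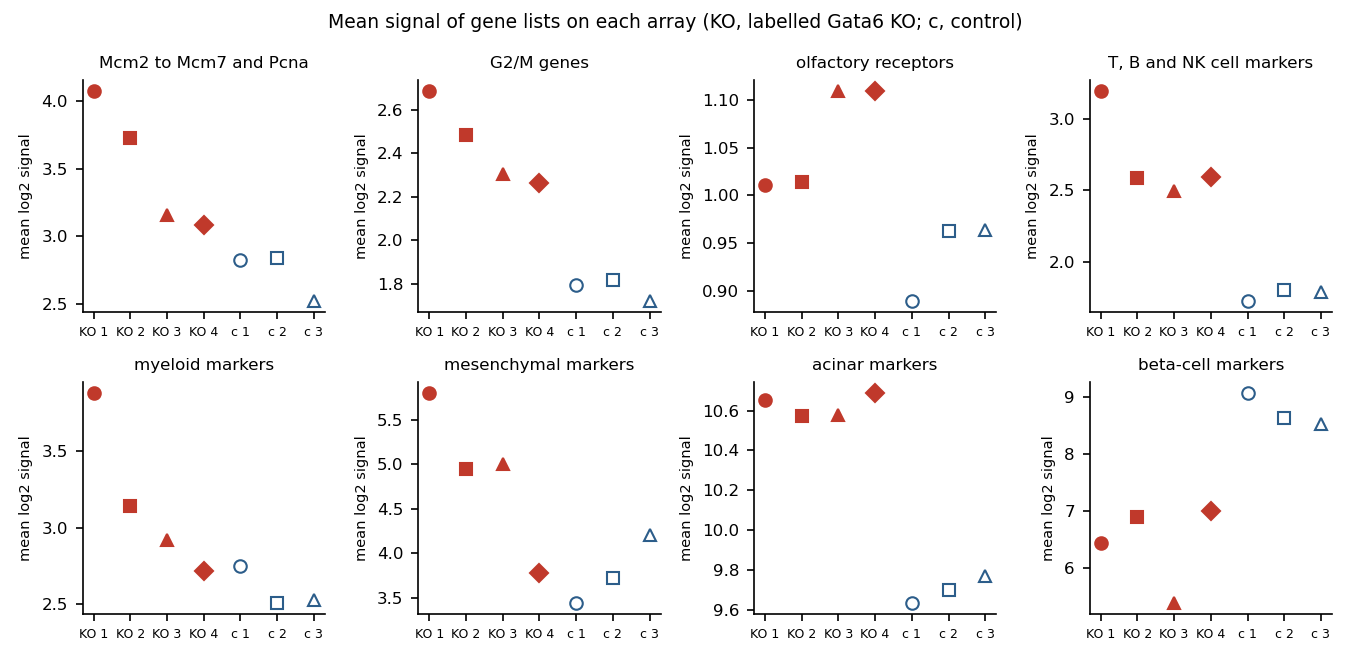
Mean log2 signal (y axes, each with its own range) of gene lists on each array, labelled Gata6 KO 1 to 4 and control 1 to 3. The mean of Mcm2 to Mcm7 and Pcna and that of the myeloid markers are highest on KO-labelled array 1 and lowest of that group on array 4, the G2/M mean is 2.26 or more on each array labelled Gata6 KO and 1.82 or less on each control array, and the olfactory receptor mean spans 0.89 to 1.11.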

How the data were processed

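The arrays measured RNA of pooled mouse islets (4 arrays labelled Gata6 KO, 3 control arrays). For 41345 probe sets the authors deposited log2 signals, and per the submitters' processing notes RMA and Transcriptome Analysis Console were used (no versions). RMA corrects background, normalizes quantiles and summarises probes, yet array medians still ran from 1.89 to 2.11 on the arrays labelled Gata6 KO and from 1.72 to 1.78 on the control arrays. Base 2 is taken from RMA. No source used here gives a genome build. Arrays have no read depth, and their number limits the precision.

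Gene symbols came from the platform's annotation (23521 probe sets with 1 symbol, 1814 with several, 16010 unnamed). For genes with several, the probe set with the highest mean was kept. All 22180 genes were fitted with limma 3.58.1 in R 4.3.3 (lmFit, eBayes with trend, no covariate), with Benjamini-Hochberg adjustment over all genes, a threshold of 0.05 and moderated SEs. Exact permutation tests covered the 35 splits of the 7 arrays. Of the called members, Rrm2, Bub1, Kif11, Nusap1 and Tpx2 had an exact permutation p of 0.0571, Ccnd2 of 0.0857 and Pcna of 0.1143. The other called members had 0.0286, the smallest possible. The limma test was also run on simulated data with independent noise and no array-wide shift, a run that does not bear on the dependence on scaling. Alternatives covered scaling, a filter, probe sets, the variance model, weights, the threshold, the replicate number, Xist class and arrays left out.

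The members, lists, tests and alternatives were chosen with earlier results of these data known. Named genes are all members, up to 3 genes with the smallest p of each other cell cycle list, the 2 brightest and up to 2 with the smallest p of each marker list, and Gata6. Promoters are from RefSeq (GRCm38.p6). No red blood cell marker had a probe set of 1 gene. Figures were drawn with matplotlib 3.10.9.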

Additional observations from a re-analysis of the deposited data

Results flagged for a closer look

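Mki67 on KO-labelled array 1 had a log2 signal of 3.60, far from the other 3 arrays labelled Gata6 KO (2.71, 2.71 and 2.72). Its gap to the next array was 0.987 of the range of the group, above Dixon's 95% critical value for 4 samples. It was the only such array among the arrays labelled Gata6 KO for the 35 members, where chance alone gives about 1 in 20 groups. The same array had the highest mean of the myeloid (3.88), lymphocyte (3.20) and mesenchymal (5.80) markers, and the part of these in the Mki67 signal was not tested.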

How the results depend on the processing

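The called members that passed in the same direction under all 20 alternatives were E2f8, Mcm7, Ccna2, Aurka and Plk1. Kif23 and Cenpe passed in every alternative in which they were tested. The filter of the 40% lowest genes removed these 2 genes, so they were not tested under it. No called member changed direction. Of the 14 members that rose (G1/S 4, G2/M 10), 8 (2 and 6) rose at an adjusted p under 0.01, where 0 fell. At that threshold 1855 of all 22180 genes rose and 942 fell. Without the 40% lowest genes, which left 26 members, 5 G2/M genes rose, and 3270 of all 13308 genes left did. On the high-Xist arrays alone 6 G2/M genes rose, and 2231 of all 22180 genes did. Without KO-labelled arrays 3 and 4, 8 G1/S genes rose and 0 fell, while 3474 of all genes rose and 1553 fell. Those arrays had the lowest member means of their group, so this fit is no check of the rises. With arrays left out one at a time, 9 to 18 members rose (G1/S 2 to 7, G2/M 6 to 11) and 0 to 2 fell, all of G1/S. Of all genes 2246 to 3812 rose and 1019 to 1801 fell in these fits. The replicate numbers do not pair the samples by the labels, and same-numbered arrays deviated together with correlations of 0.098, 0.004 and 0.115. With a replicate block, to which the unpaired KO-labelled array 4 adds nothing, 7 G1/S genes rose (18 members in all). With this block 3975 of all genes rose and 1946 fell. Over all genes the counts of higher and lower calls in the main test were 3853 and 1633, against 1870 and 2769 after centring on the median, 2440 and 2477 after repeated quantile normalization and 2967 and 1841 after centring on olfactory receptors. The cause was not tested.

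Sign changes were confined to 5 members that did not pass. After centring on the median, E2f1, Aurkb, Kif20a and Cenpf differed by -0.12, -0.17, -0.11 and -0.17, after repeated quantile normalization by -0.039, -0.13, -0.12 and -0.105, and after centring on olfactory receptors Aurkb and Cenpf by -0.015 and -0.010. On the high-Xist arrays alone Ccne1, E2f1 and Aurkb differed by 0.028, -0.022 and -0.018, and without KO-labelled arrays 3 and 4 Ccne1 and E2f1 by 0.068 and -0.078. With arrays left out one at a time, the differences ranged from -0.317 to 0.007 for Ccne1, -0.052 to 0.203 for Aurkb, -0.026 to 0.289 for Kif20a and -0.097 to 0.226 for Cenpf.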
